A study of Mus musculus with 4 samples.

Results

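Dense clusters of distal open chromatin were described in B16F10, a melanoma line of the mouse that was kept in culture, and followed into cells with a guide RNA against Arid1a. Open regions were first built by merging the peaks of the 2 control libraries (sgScramble), which gave 94189 regions, and 73157 of them had a peak in both control libraries. Of these, 56075 lay over 2.5 kb from every end of a protein-coding gene in mm10 and are called distal. Distal neighbours were joined across gaps of up to 12.5 kb, and groups of 5 or more regions were kept as clusters. This gave 1387 clusters holding 8925 regions, which were 15.9% of the distal regions and 12.2% of all regions in both control libraries. The remaining 47150 distal regions served for comparison. The clusters were selected on where the sgScramble peaks lay, so their number, size, spacing and strength in sgScramble are a description. The sgArid1a lists had no part in that choice.

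Open DNA was mapped by ATAC-seq, which uses a transposase, Tn5, to place adapters where DNA is free of nucleosomes, from 50000 cells per reaction. The control group carried a scrambled guide (sgScramble, 2 libraries) and the other group a guide against Arid1a (sgArid1a, 2 libraries), both in the same cell line. The labels name no treatment or time, and do not say whether the cells were 1 clone or a pool, or whether replicates were separate cultures. Spread between replicates may therefore be technical. A peak list cannot show whether Arid1a was disrupted, so the guide label has no check here.

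Arid1a encodes a large subunit, able to bind DNA, of the BAF complex (SWI/SNF), which slides and evicts nucleosomes with the energy of ATP and acts largely at enhancers. Enhancers are short stretches of DNA, bound by transcription factors, that act on gene promoters at a distance. Stretches in which many enhancers crowd together are well known near genes of cell identity, where they are often ranked by Mediator or acetylated histone signal. Such marks were not used here, and the clusters were built from open chromatin alone. In melanocytes the factors MITF, SOX10, TFAP2A and PAX3 bind the lineage's enhancers, and AP-1 and TEAD factors bind many enhancers of dedifferentiated melanoma cells.

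The clusters also held small RNA genes, and their mature sequences are shown because 2 of the clusters with most regions, and 2 of ordinary size, enclosed members of families that share a seed, the bases 2 to 8 that pair with target transcripts. Capitals mark the seed, and the sequences are from RefSeq on GRCm38.p6.
miR-29a-3p: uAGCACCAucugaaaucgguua
miR-29b-3p: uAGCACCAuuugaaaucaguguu
let-7b-5p: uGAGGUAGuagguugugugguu
let-7c-5p: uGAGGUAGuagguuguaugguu
let-7a-5p: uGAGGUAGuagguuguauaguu
let-7d-5p: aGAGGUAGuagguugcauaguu
let-7f-5p: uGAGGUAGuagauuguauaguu
miR-30a-5p: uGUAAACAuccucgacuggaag
miR-30c-5p: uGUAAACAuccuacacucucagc
The miR-29 pair lay within the cluster with the most regions, on chromosome 6. The let-7b and let-7c pair lay within a cluster of 16 regions on chromosome 15, and the let-7a, let-7d and let-7f hairpins within a cluster of 6 on chromosome 13. The miR-30a and miR-30c-2 hairpins lay within a cluster of 6 regions on chromosome 1.

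Some clustered regions held a RefSeq transcription start, of a non-coding gene or at an internal start of a coding gene. The windows below are examples picked from those that lie in long or lineage-related clusters and were open in every library. For Lncpint and D130051D11Rik, which are non-coding, the window runs from 250 bases before the start to 50 after it, and for Septin9 and Mitf only the 250 bases before the start are printed. Capitals mark letters matching an AP-1 (TGANTCA), M-box (CATGTG) or TEAD (GGAATG) core on either strand. The sequences are from RefSeq on GRCm38.p6, 5′ to 3′ on the gene's strand.
Septin9, plus strand, chr11:117331465-117331714: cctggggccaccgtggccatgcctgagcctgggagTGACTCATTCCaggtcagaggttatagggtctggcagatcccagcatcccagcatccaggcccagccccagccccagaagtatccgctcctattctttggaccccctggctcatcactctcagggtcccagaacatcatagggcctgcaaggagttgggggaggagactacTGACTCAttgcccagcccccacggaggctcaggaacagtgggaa
Mitf, plus strand, chr6:97991533-97991782: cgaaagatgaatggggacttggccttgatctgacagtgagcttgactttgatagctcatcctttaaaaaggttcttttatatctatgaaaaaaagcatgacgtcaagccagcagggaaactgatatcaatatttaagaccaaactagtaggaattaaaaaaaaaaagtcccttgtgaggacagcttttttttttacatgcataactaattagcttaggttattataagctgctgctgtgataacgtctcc
Lncpint, minus strand, chr6:31218425-31218724: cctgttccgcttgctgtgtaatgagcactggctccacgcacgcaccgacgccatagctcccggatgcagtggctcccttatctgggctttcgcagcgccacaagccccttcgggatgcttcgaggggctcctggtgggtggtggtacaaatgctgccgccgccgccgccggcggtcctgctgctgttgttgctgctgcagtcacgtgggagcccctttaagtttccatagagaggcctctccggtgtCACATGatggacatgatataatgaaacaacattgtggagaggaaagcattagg
D130051D11Rik, plus strand, chr15:85634346-85634645: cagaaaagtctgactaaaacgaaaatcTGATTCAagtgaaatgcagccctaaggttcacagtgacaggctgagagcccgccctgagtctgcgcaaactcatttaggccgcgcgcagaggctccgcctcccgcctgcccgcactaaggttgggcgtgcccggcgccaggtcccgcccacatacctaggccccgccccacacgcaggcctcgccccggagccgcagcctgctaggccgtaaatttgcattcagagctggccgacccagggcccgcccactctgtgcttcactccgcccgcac
In the printed Septin9 window an AP-1 match and a TEAD match overlap, and a further AP-1 match lies closer to the start. Other Septin9 windows of this cluster, beginning at 117265996 and 117332063, also lay in regions open in every library. They held no AP-1, M-box or TEAD match, so the printed window does not stand for all Septin9 starts. The Mitf window held none of the searched letters, the SOX core ACAAAG included.

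Few libraries limit what follows, and their depth is unknown because the lists hold no read counts. The authors' lists held 82319 and 85613 peaks in sgScramble and 65353 and 71255 in sgArid1a, so every count of missing peaks moves with shorter sgArid1a lists, and depth was not tested as its source. Melanocytic markers were open in all 4 libraries: a peak lay within 1 kb of a gene end at 9 of 10 markers, among them Tyr, Dct, Pmel, Mlana and Sox10. Peaks lay at 5 to 7 of 10 leukocyte, 1 to 2 of 8 epithelial and 2 to 3 of 9 fibroblast and endothelial markers. Of these, Cd3g, Cd79a, Lyz2, Spi1, Cd14, Krt8, Col1a1 and Pdgfra had a peak in all 4 libraries. Ptprc, Itgam and Epcam had none.

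Most clusters were near the smallest size allowed. There were 636 clusters of 5 regions, 310 of 6, 152 of 7, 177 of 8 to 9, 78 of 10 to 12 and 34 of 13 to 27, with a median of 6. Just outside the rule lay 1204 groups of 4 regions, and 20807 distal regions had no neighbour within reach. The clusters spanned 13510 to 188993 bp with a median of 36538 bp, and together 55.9 Mb. Open sequence filled 8.24 Mb of that, and the median cluster was 14.4% covered by sgScramble peaks (range 6.33% to 40.2%). The median gap between neighbouring regions was 5840 bp.

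**Figure D1:**
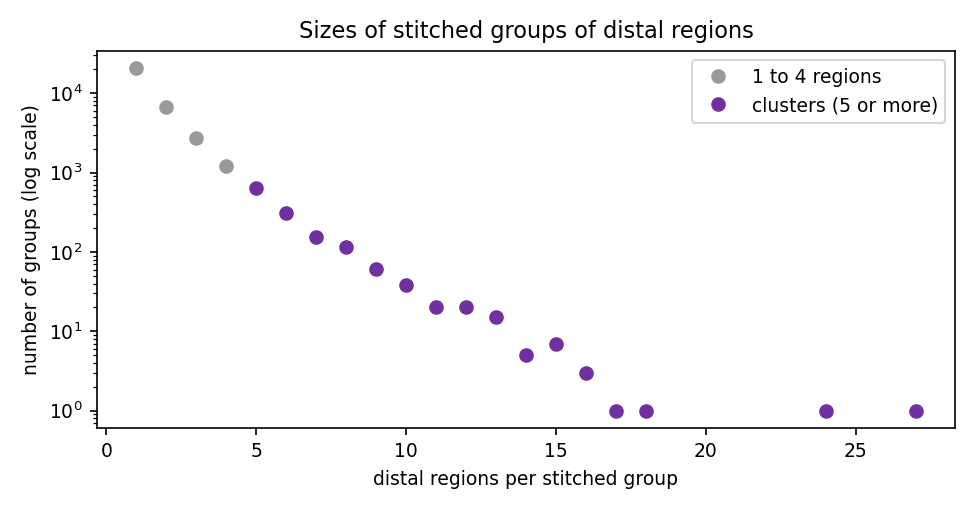
Number of stitched groups (log axis) by the number of distal regions in each, with groups of 1 to 4 in grey and clusters of 5 or more in purple. Counts fall from 20807 single regions to 636 clusters of 5 and 1 cluster each of 17, 18, 24 and 27 regions.

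Clustered regions lay mostly inside genes, and by the rule over 2.5 kb from every protein-coding gene end. A protein-coding gene held 62.7% of the clustered regions against 54.0% of the other distal regions. Of the 1387 clusters, 688 (49.6%) lay wholly within 1 protein-coding gene, 409 (29.5%) overlapped none and 299 (21.6%) had a gene end inside their span. A non-coding gene overlapped 611 clusters (44.1%). The midpoint lay within 50 kb of its nearest protein-coding gene end in 1016 clusters (73.3%), with a median distance of 30070 bp, and over 100 kb from every such end in 142 (10.2%). Clustering was uneven across chromosomes. The share of distal regions in clusters was 23.8% on chromosome 11, 22.4% on chromosome 6 and 21.4% on chromosome 15. It was 7.53% on chromosome 14 and 3.99% on X. On Y, 6 of only 7 distal regions lay in 1 cluster.

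Clustered regions were slightly wider and of lower fold than other distal regions. Strength was taken as the percentile of the authors' fold, the signal of a peak over its background, within each sgScramble list, averaged over both lists. The median fold percentile was 41.0 for clustered regions (quartiles 20.4 to 64.1) and 55.3 for the others (33.8 to 75.9). By the percentile of the authors' −log10 p the order turned, with medians of 52.7 and 49.8. The median length covered by sgScramble peaks was 795.5 bp in clustered and 738.5 bp in other distal regions. In the sgArid1a lists, the median fold percentiles of clustered regions with a peak were 43.9 and 43.7 in replicates 1 and 2, against 52.7 and 54.4 for the others. The fold order was thus the same in both groups.

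The central question was how many cluster constituents had no peak in the sgArid1a lists. Of the 8925 clustered regions, 1186 (13.3%, exact 95% binomial interval 12.6% to 14.0%) had no peak in either sgArid1a list. The background was 12.8% over all regions in both control libraries, 15.6% over the other distal regions, and 5.06% over the 17082 regions near gene ends. Clustered regions were thus absent less often than other distal regions, by a difference of -2.27 percentage points (95% interval -3.05 to -1.498, normal approximation). These intervals treat regions as independent and cover counting error only, although regions of a cluster share a locus. With 2 libraries a group the difference has no test over libraries.

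The difference had the same sign in each sgArid1a library. In replicate 1, 24.0% of clustered and 27.7% of other distal regions had no peak. In replicate 2 the shares were 18.2% and 21.0%. Both sgArid1a lists had a peak in 71.1% of clustered regions and in 67.0% of the others. A peak was missing only in replicate 1 in 10.8% of clustered regions and only in replicate 2 in 4.90%, so the replicates did not miss the same regions in many cases. When only regions from sgScramble peaks with a −log10 q of at least 5 were clustered and set against the full sgArid1a lists, 3.51% of 1821 clustered and 3.74% of other distal regions were absent. That difference was -0.22 points, with an interval from -1.09 to 0.65 that includes 0.

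Absent constituents were the weak and short ones. Their median covered length was 467.5 bp against 846 bp for constituents with a peak in at least 1 sgArid1a list. Their median fold percentile was 18.03 against 45.7, and their median −log10 p percentile 20.3 against 58.2. Among the other distal regions the same contrast held, with 468.5 and 796 bp. Of the absent clustered regions 85 (7.17%) lay above the 50th fold percentile, against 1495 (20.4%) of the absent other distal regions. Fold was lower in clustered regions as a whole too, present or absent, with a median percentile of 41.0 against 55.3.

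Compared at like fold, clustered regions were absent less often in all 10 bins of 10 fold percentiles each. In the lowest bin 31.4% of clustered and 39.5% of other distal regions were absent, and between the 50th and 60th percentile 4.87% and 12.4%. Weighting the other distal regions to the fold percentiles of the clustered ones widened the difference to -7.87 points. Over bins of the −log10 p percentile the clustered share was lower in 7, higher in 2 and equal at 0 in 1, and the weighted difference was -1.82 points. Weighting by width left -1.01 points. The size of the difference therefore depended on the measure of strength held equal, and its sign was the same with each of these 3.

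**Figure D2:**
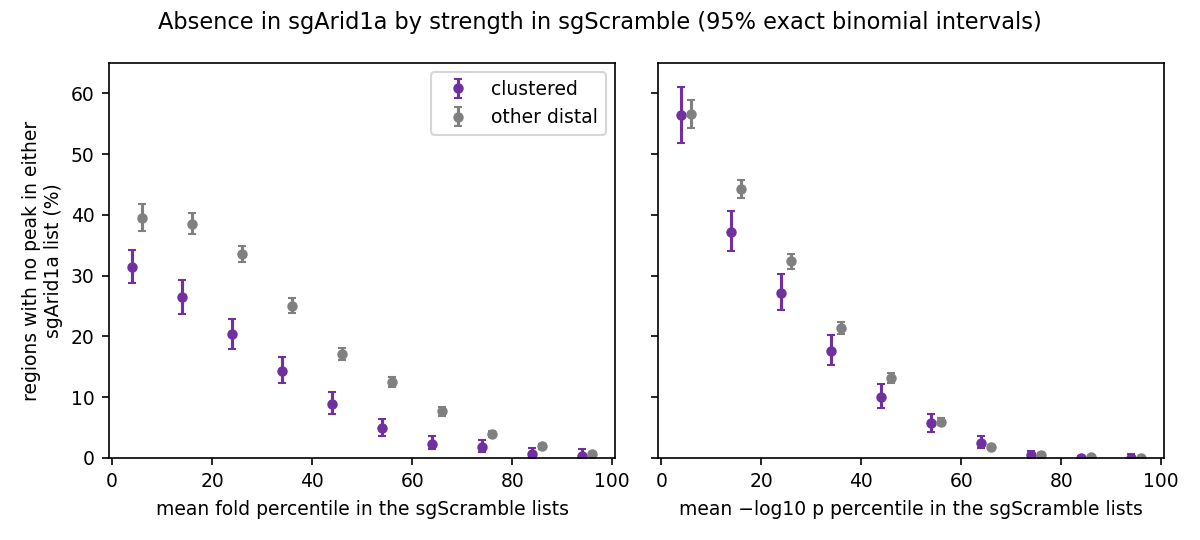
Share of regions with no peak in either sgArid1a list (percent, with exact 95% binomial intervals) by bins of 10 percentiles of the mean fold percentile (left) and of the mean −log10 p percentile (right) in the sgScramble lists. Clustered regions (purple) lie below other distal regions (grey) in all 10 bins on the left and in 7 of 10 on the right.

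The absent share did not follow cluster size beyond counting error. It was 13.6% in clusters of 5 regions, 13.4% in those of 6, 13.5% in those of 7, 12.9% in those of 8 to 9, 11.5% in those of 10 to 12 and 14.1% in those of 13 to 27, with overlapping intervals. Across the boundary of the rule the values were close, at 13.8% in groups of 4 and 13.6% in clusters of 5. Single regions stood at 16.4% and pairs at 15.3%, while their median fold percentiles were 60.0 and 53.8. The outermost regions of clusters were absent in 13.6% and the inner ones in 13.2%. Constituents inside protein-coding genes were absent in 13.8% and those outside in 12.4%. Regions holding a RefSeq start stood apart: 349 clustered regions did so and 15 of them (4.30%, interval 2.43% to 6.99%) were absent, against 13.7% of those without. The same held among other distal regions, at 4.47% and 15.9%.

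Absent constituents were spread over many clusters, a few in each. In 580 clusters (41.8%) no constituent was absent from both sgArid1a lists, in 515 exactly 1 was, in 221 there were 2, in 59 there were 3 and in 12 there were 4 or more. All constituents were absent in 0 clusters, and 50% or more in 29 (2.09%). In 199 clusters (14.3%) every constituent had a peak in both sgArid1a lists. At least 5 constituents kept a peak in both sgArid1a lists in 610 clusters (44.0%). Clustered regions were covered over 8.22 and 8.27 Mb in the sgScramble libraries and over 5.41 and 6.17 Mb in the sgArid1a libraries, or 65.6% and 74.8% of the sgScramble mean. For the other distal regions these shares were 60.7% and 71.4%. Both sgArid1a libraries covered less than both sgScramble libraries in 1306 clusters (94.2%) and more in 0. The rule asked for sgScramble peaks, and groups of 4 regions gave 90.8% in the same comparison.

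Applying the rule to each list alone treats the groups alike. It found 1950 and 2189 clusters in the sgScramble lists and 880 and 1238 in the sgArid1a lists. The means were 2069.5 ± 169 and 1059 ± 253 (SD, n = 2 each), a difference of -1010.5 or -48.8%. The groups did not overlap, and the exact permutation test (two-sided) gave p = 0.333, the smallest that 2 against 2 libraries allow. The distal peaks themselves were 21.5% fewer in sgArid1a. The share of distal peaks lying in clusters was 20.2% and 22.0% in sgScramble and 11.1% and 14.6% in sgArid1a, a difference of -8.22 points (exact permutation p = 0.333). With the lists held to equal length by their strongest peaks (by −log10 p), the difference turned. The sgScramble lists then gave 892 and 871 clusters and the sgArid1a lists 880 and 945, 31 more on average (exact permutation p = 0.667). The shares became 11.11% and 10.86% in sgScramble against 11.12% and 12.04% in sgArid1a, a difference of 0.59 points (exact permutation p = 0.333). These shares did not overlap between groups, in the order opposite to that of the unequal lists. List length and group cannot be told apart in the unequal lists.

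**Figure D3:**
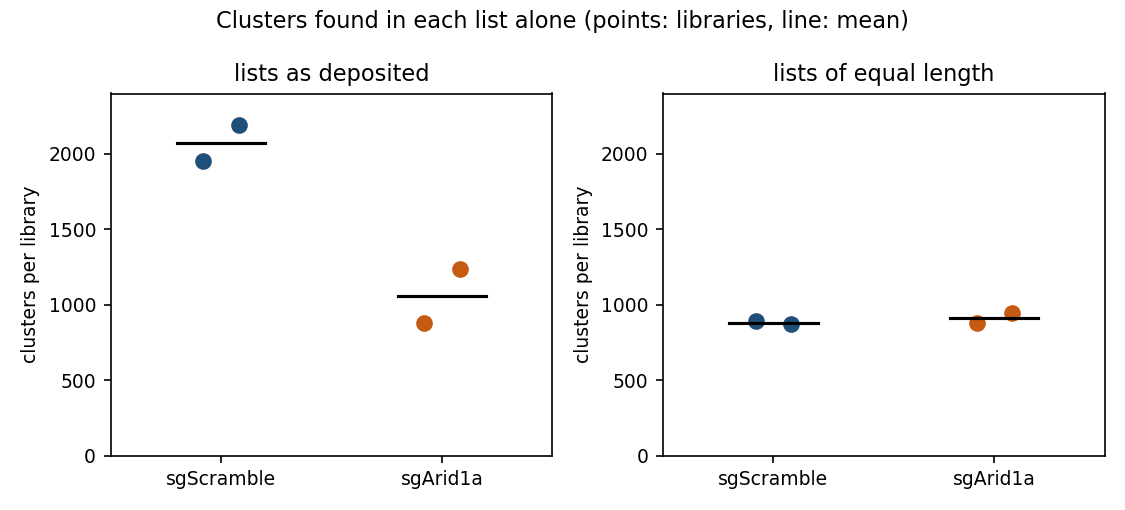
Clusters found by the rule in each library's list alone (points) with the group mean (line), from the lists as deposited (left) and held to equal length (right). As deposited, both sgArid1a lists (880 and 1238) lie below both sgScramble lists (1950 and 2189), and at equal length the 4 libraries lie between 871 and 945.

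The cluster with the most regions lay on chromosome 6 from 31032797 to 31221789, over the non-coding gene Lncpint, a p53-induced transcript, and the Mir29a and Mir29b-1 hairpins. Its nearest protein-coding gene end, 168303 bp from the midpoint, was that of Klf14, a Krüppel-like factor. Of its 27 regions, all open in both control libraries by the rule, 23 had a peak in sgArid1a replicate 1 and 25 in replicate 2. Covered length was 35358 and 35993 bp in sgScramble and 28526 and 29865 bp in sgArid1a. Thus 25 of 27 constituents stayed in at least 1 list while the peaks covered less, as in 94.2% of all clusters. The region at the printed Lncpint window was covered over 2526 and 2548 bp in sgScramble and 2548 and 2532 bp in sgArid1a. Its covered length barely varied between libraries. The region nearest to the miR-29 hairpins, 1622 bp from Mir29b-1, was covered over 1009, 1018, 899 and 944 bp in the same order.

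The second cluster by size lay on chromosome 11 from 117194432 to 117367235, mostly within Septin9, which encodes a filament-forming GTPase of the cytoskeleton. Of its 24 regions 21 and 23 had a peak in sgArid1a replicates 1 and 2, and 1 was absent from both. Covered length was 33798 and 36910 bp in sgScramble and 27031 and 29770 bp in sgArid1a. The region at the printed Septin9 window, with AP-1 and TEAD letters, was covered over 3423 and 3472 bp in sgScramble and 3439 and 3325 bp in sgArid1a. Its wide peak stayed in all 4 libraries.

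The cluster nearest to Ppara, which encodes a nuclear receptor of fatty acid breakdown, lay on chromosome 15 from 85627970 to 85724973 and held the let-7c-2 and let-7b hairpins. It had 16 regions, of which 15 and 14 had a peak in sgArid1a replicates 1 and 2, and covered 23815 and 23466 bp in sgScramble against 19908 and 20499 bp in sgArid1a. The region 59 bp from the let-7b hairpin was covered over 3023 and 2599 bp in sgScramble and 2728 and 3018 bp in sgArid1a, so the groups overlapped there. The region at the printed D130051D11Rik window stood at the 98.2nd fold percentile and was covered over 1048, 1080, 1048 and 934 bp.

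More constituents were absent at Tns1, which encodes tensin 1, a link between integrins and actin filaments. Its cluster on chromosome 1, from 73901405 to 74008918, had 16 regions, with a peak in 9 and 11 of them in sgArid1a replicates 1 and 2, and 5 (31.3%) absent from both. Covered length was 18537 and 16737 bp in sgScramble and 7300 and 10799 bp in sgArid1a. The groups did not overlap, as in 94.2% of all clusters. The absent regions ranged from 257 to 1684 bp in width, and the widest of them was covered over 1684 bp in sgScramble replicate 1 but 362 bp in replicate 2.

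**Figure D4:**
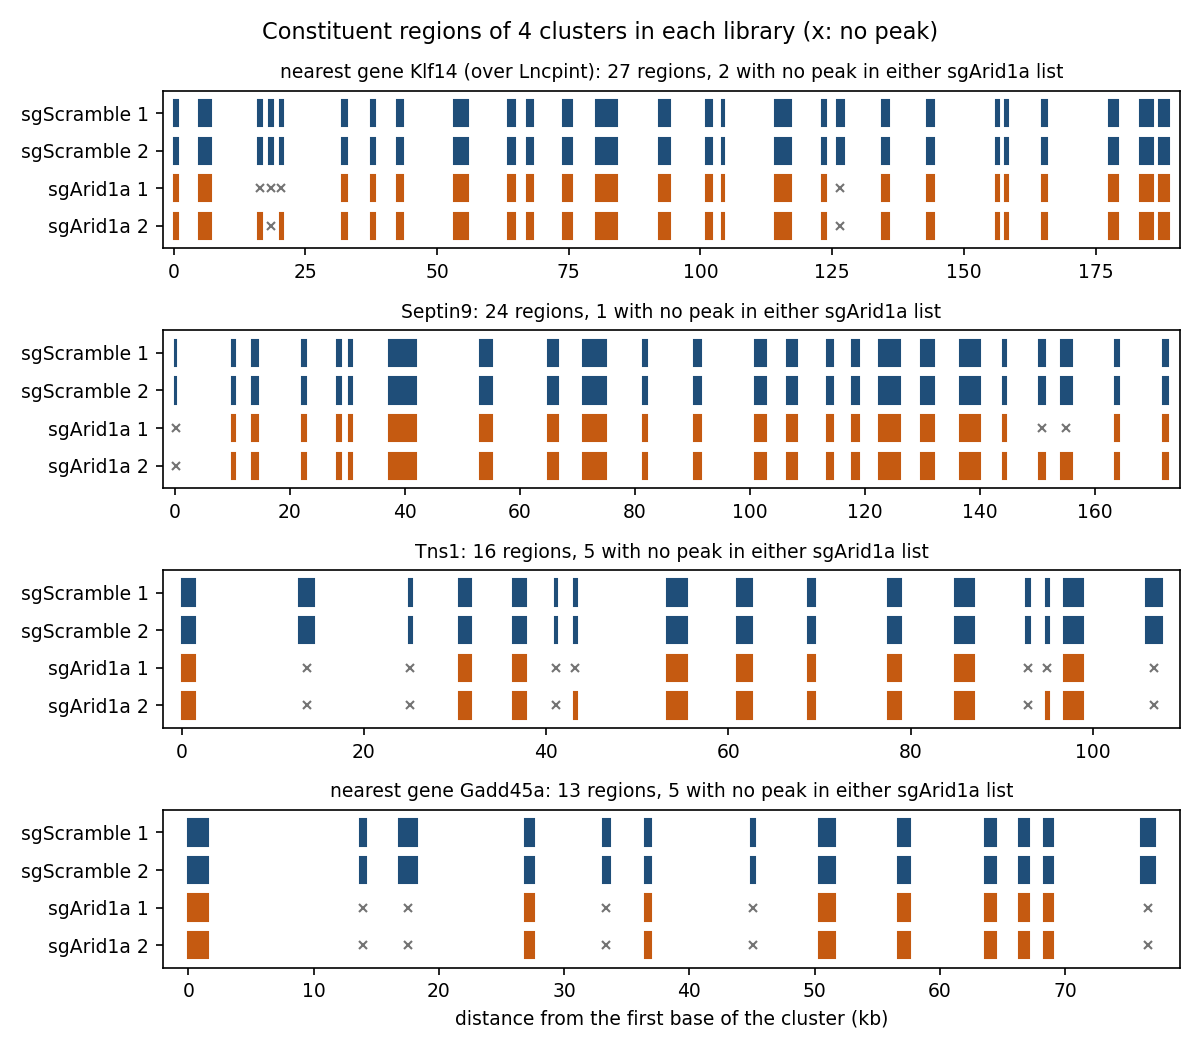
Constituent regions of the clusters nearest to Klf14, Septin9, Tns1 and Gadd45a in the 4 libraries, against distance from the first base of the cluster in kb. Filled boxes mark a region with a peak in that library (drawn at the region's full width) and crosses mark no peak; 2 of 27, 1 of 24, 5 of 16 and 5 of 13 regions have crosses in both sgArid1a rows.

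The other clusters named among the 10 with most regions were nearest to Myo10 (18 regions, 2 absent), a myosin of filopodia, Fam178b (17, 2), Dennd3 (16, 2), an activator of Rab GTPases, Rapgef4 (15, 3), a cAMP-activated exchange factor for Rap1, Wnt9a (15, 2), a Wnt ligand, and Jazf1 (15, 2), a zinc finger protein. The last 3 are the shortest of 7 clusters tied at 15 regions, among which absent constituents numbered 0 to 4. The Wnt9a cluster also overlapped Wnt3a. At Myo10 the covered length was 15049 and 16476 bp in sgScramble and 8496 and 12061 bp in sgArid1a. At Rapgef4 it was 16677 and 17818 bp against 13574 and 13381 bp. The groups overlapped at neither, as in 94.2% of all clusters.

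Among clusters of at least 8 regions, the highest absent shares were at Dst and Gnao1, where 5 of 8 constituents (62.5%) had no peak in either sgArid1a list. They are given as the extremes of the distribution and were picked for these values. Dst encodes dystonin, which ties filaments of the cytoskeleton together, and its cluster lies on chromosome 1 from 33883918 to 33927229. It was covered over 6549 and 7281 bp in sgScramble and 1503 and 1895 bp in sgArid1a. Gnao1 encodes a G protein alpha subunit, and its cluster on chromosome 8, from 93902143 to 93958472, was covered over 5809 and 4947 bp against 2410 and 2292 bp. In both clusters the same 3 regions had a peak in each sgArid1a replicate. At Gnao1 the strongest region, with a fold percentile of 75.01, was covered over 1367, 1330, 1189 and 1359 bp, while the absent regions stood between the 8.72nd and 39.6th percentile.

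Gadd45a, a gene induced by DNA damage, was the nearest coding gene to a cluster on chromosome 6 from 67101839 to 67178980, with 5 of 13 constituents absent (38.5%). The cluster midpoint lay 103003 bp from that gene's end. It was covered over 8910 and 10307 bp in sgScramble and 4901 and 5194 bp in sgArid1a. Its strongest region, at the 85.0th fold percentile, was covered over 974, 935, 938 and 947 bp. It was not alone in varying little: the region from 67168168 to 67168933 was covered over 765, 755, 754 and 766 bp. Mad1l1, of the spindle checkpoint, Dclk2, a kinase bound to microtubules, and Itga5, the alpha subunit of the main fibronectin receptor, each had 3 of 8 absent (37.5%). They are the shortest 3 of 10 clusters tied at that share. At the other extreme, 0 constituents were absent in 82 of the 289 clusters of at least 8 regions. Those with most regions were at Zfp469 (15 regions), Fmn1 (13), a formin that builds actin filaments, and a cluster of 13 within Sfi1 whose nearest gene end was that of Gm51877. All 13 regions of the Sfi1 cluster had a peak in each list, at a mean fold percentile of 10.6. Its mean −log10 p percentile was 62.8. The cluster lies on chromosome 11 from 3140521 to 3197040, near that chromosome's first base, and the background at this locus was not tested. Shares without regions so placed are given under Other observations.

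The nearest protein-coding genes of the clusters numbered 1239, or 5.66% of the 21887 in the table, and 128 of them were nearest to more than 1 cluster. Msi2, which encodes an RNA-binding protein of stem cells, was nearest to 5 clusters with 35 regions, of which 4 were absent. Med13l, of the Mediator kinase module, was nearest to 4 clusters (23 regions, 3 absent), and Nav2, a neuron navigator gene, to 4 (25 regions, 7 absent). Long genes and genes with wide flanks have more room for a cluster, and gene length was not held equal in the shares by gene list that follow. A nearest gene is a matter of position and not of a measured target.

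**Figure D5:**
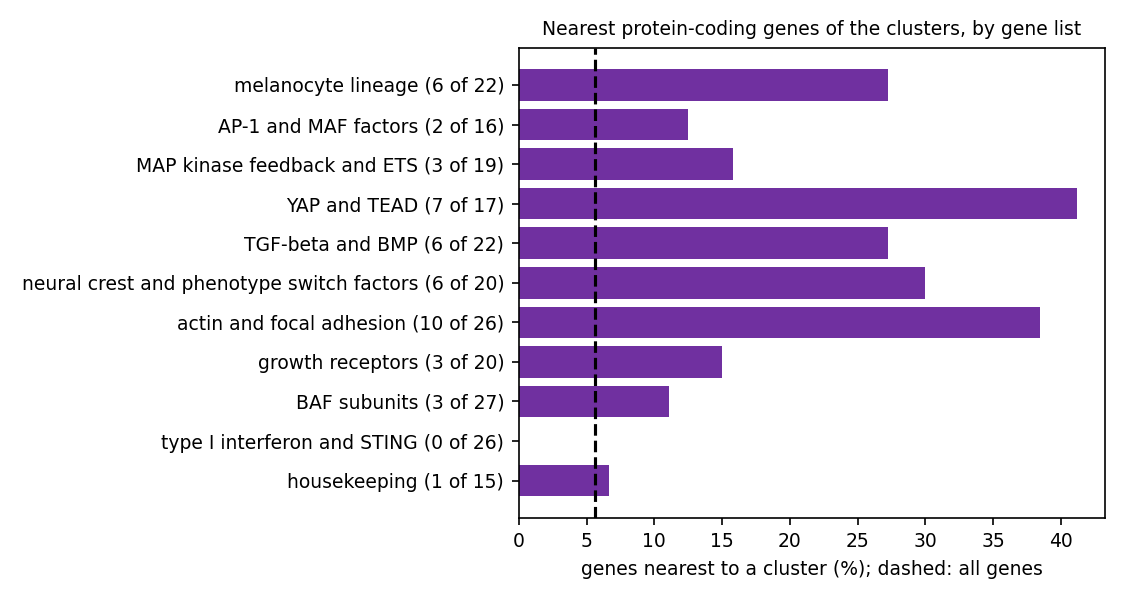
Share of the genes of each list that are the nearest protein-coding gene of a cluster (bars, percent, with the count of genes), and the share over all protein-coding genes (dashed line, 5.66%). YAP and TEAD (7 of 17) and actin and focal adhesion (10 of 26) have the longest bars, and type I interferon and STING has 0 of 26.

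Melanocyte lineage genes were nearest to a cluster in 6 of 22 cases (27.3%): Bcl2, Dct, Gpnmb, Mitf, Oca2 and Pax3. Their clusters held 40 regions, of which 8 (20%) were absent in sgArid1a, against 13.3% of all clustered regions. That share rests on few clusters: 3 absent regions lay in the cluster of 5 at Bcl2. Mitf and Pax3 had 2 each, Oca2 had 1, and Dct and Gpnmb had 0. Mitf, the master regulator of the lineage, had a cluster on chromosome 6 from 97964534 to 98027732 with 9 regions, of which 6 and 7 had a peak in sgArid1a replicates 1 and 2. It was covered over 11061 and 10709 bp in sgScramble and 6831 and 7772 bp in sgArid1a. Its region over the printed start window was covered over 511 and 591 bp in sgScramble and 626 and 508 bp in sgArid1a. The groups thus overlapped at the start, where 626 bp is the region's full width and the most that could be counted. The cluster as a whole was covered less in both sgArid1a libraries, as were 94.2% of all clusters. The strongest region by −log10 p, at the 99.6th percentile, was covered over 1130, 1128, 784 and 901 bp. The absent constituents were short, with widths of 320 and 408 bp.

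Pax3, a neural crest transcription factor upstream of Mitf, had a cluster of 9 regions within the gene on chromosome 1 from 78138609 to 78190243. A peak was present in 7 of 9 in each sgArid1a replicate, and covered length was 10074 and 10280 bp in sgScramble and 8152 and 9526 bp in sgArid1a. The fold percentile was between 0.26 and 5.09 in 8 of its 9 regions, so the cluster was wide and of low fold. At Dct, the pigment enzyme dopachrome tautomerase, all 7 regions had a peak in every library, and 10821 and 11397 bp were covered in sgScramble against 10523 and 10364 bp in sgArid1a. At Bcl2, the survival gene, 3 of 5 were absent. Each sgArid1a replicate had a peak in only 1 region, and it was not the same region in both. Its covered length was 2579 and 1842 bp against 288 and 427 bp, the lowest ratio among the clusters of this list.

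Genes of AP-1 and MAF factors were nearest in 2 of 16 cases, Fos and Jdp2, which lie side by side on chromosome 12. None of their 13 regions was absent from both sgArid1a lists. At Fos 8 of 8 regions had a peak in replicate 2 and 7 in replicate 1, and covered length was 8420 and 8731 bp in sgScramble and 7421 and 7910 bp in sgArid1a. MAP kinase feedback and ETS genes were nearest in 3 of 19 cases (Ets1, Myc and Phlda1), with 1 of 27 regions absent (3.70%). The Ets1 cluster, within the gene on chromosome 9 from 32666696 to 32750455, had 14 regions with a peak in 13 and 12 of them, and covered 20162 and 17487 bp in sgScramble and 14943 and 15785 bp in sgArid1a. The cluster nearest to Myc lay over Pvt1, 137295 bp from the end of Myc, and had 8 regions with a peak in 8 and 6 of them. These shares of absent regions lie below the 13.3% of all clustered regions, over few clusters.

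YAP and TEAD genes were nearest in 7 of 17 cases (41.2%): Amotl1, Amotl2, Ccn1, Lats2, Tead1, Vgll4 and Yap1. Of their 45 regions 6 (13.3%) were absent. At Vgll4, a TEAD cofactor, 11 of 14 regions had a peak in each sgArid1a replicate. At Tead1 all 5 regions had a peak in every library, yet covered length was 6550 and 6641 bp in sgScramble and 2983 and 3318 bp in sgArid1a. Less of these regions was covered in both sgArid1a libraries, as in 94.2% of all clusters, although none lacked a peak. TGF-beta and BMP genes were nearest in 6 of 22 cases (Ski, Smad3, Smad6, Smad7, Tgfb2 and Thbs1), with 3 of 46 regions absent (6.52%). Smad6, an inhibitory Smad, was nearest to 3 clusters with 17 regions, none of them absent.

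Actin and focal adhesion genes were nearest in 10 of 26 cases (38.5%): Actn1, Actn4, Cald1, Cd44, Itga5, Itgav, Myh9, Pxn, Tns1 and Tns3. Their 12 clusters held 98 regions, and 21 of them (21.4%) were absent, against 13.3% of all clustered regions. The absent regions were 5 at Tns1, 5 over the 3 clusters nearest to Tns3, 3 at Itga5, 2 each at Myh9, Actn4, Cd44 and Actn1, and 0 at Pxn, Cald1 and Itgav. At Cd44, the hyaluronan receptor, covered length was 5662 and 5705 bp in sgScramble and 2926 and 3830 bp in sgArid1a. At Pxn, which encodes the adaptor paxillin, it was 10082 and 11623 bp against 8963 and 9296 bp. Members of the list thus ran from 0 to 5 absent regions.

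Neural crest and phenotype switch factors were nearest in 6 of 20 cases (Foxd3, Nfatc2, Sox5, Tcf4, Tcf7l2 and Zeb2), with 5 of 36 regions absent (13.9%). At Tcf7l2, a Wnt pathway factor, 2 of 5 were absent and covered length was 6744 and 7065 bp in sgScramble and 1975 and 3783 bp in sgArid1a. Growth receptors were nearest in 3 of 20 cases (Epha2, Fgfr2 and Met), with 4 of 27 absent (14.8%). Met, the hepatocyte growth factor receptor, had 10 regions within the gene, with a peak in 7 and 8 of them and 10162 and 11222 bp covered in sgScramble against 6868 and 7400 bp in sgArid1a. Subunits of the BAF complex were nearest in 3 of 27 cases (Arid1b, Smarca4 and Smarcd3), with 4 of 33 absent (12.1%).

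Arid1b, the paralog of Arid1a, was nearest to 3 clusters on chromosome 17 with 18 regions, of which 1 was absent. The largest, of 8 regions from 5286974 to 5328286, was covered over 5933 and 6437 bp in sgScramble and 3606 and 4015 bp in sgArid1a. At Smarca4, the BAF ATPase BRG1, 2 of 7 were absent and covered length was 4973 and 5178 bp against 1650 and 2479 bp. No gene of the type I interferon and STING list was nearest to a cluster (0 of 26 matched), and among housekeeping genes 1 of 15 was, Ywhaz, with 1 of 6 regions absent.

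MicroRNA hairpins lay in few clusters. Of the 1005 RefSeq hairpins, 51 fell within the spans of 36 clusters, and 12 overlapped a clustered region. The 278 regions of these clusters included 40 absent ones (14.4%). The cluster with miR-30a and miR-30c-2, on chromosome 1 from 23255587 to 23293394, lost none of 6 regions. The region overlapping the miR-30a hairpin was covered over 1447 and 1440 bp in sgScramble and 1272 and 1453 bp in sgArid1a, and that next to miR-30c-2 over 426 and 656 bp against 0 and 502 bp. The cluster with let-7a, let-7d and let-7f, from 48528061 to 48572759 on chromosome 13, also lost none of 6. The region nearest to let-7d was covered over 972 and 1076 bp in sgScramble and over 0 and 983 bp in sgArid1a, so a single sgArid1a library lacked it.

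Motif letters in the start windows were close to those of starts elsewhere. Of 420 windows of 300 bases whose start lay in a clustered region, 10.5% held TGANTCA (AP-1), 11.9% CATGTG (M-box), 16.7% GGAATG (TEAD) and 20.7% ACAAAG (SOX), on either strand. Over 1719 windows in other distal regions the shares were 8.32%, 14.0%, 16.9% and 19.6%, and over all 32851 windows 7.81%, 14.2%, 14.7% and 18.7%. Over the 45 windows of the named clusters' nearest genes they were 4.44%, 4.44%, 17.8% and 15.6%. Some genes had more than 1 start, and their windows were each counted even where they overlapped. The 420 windows came from 344 genes, the 1719 from 1470, the 32851 from 27025 and the 45 from 30. These shares are descriptions of letters and carry no test. The sequence of the regions without a start was not used here.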

How the data were processed

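Omni-ATAC libraries of B16F10 cells were grouped by sample title into sgScramble and sgArid1a (n = 2 each). The authors deposited 1 broad peak list per library, and each peak has a whole-number score, a fold (ratio) of signal over background, and −log10 p and −log10 q values, all as deposited. Per the submitters' processing notes the tools were HOMER and STAR 2.5.3a, with no role stated, and the builds mm10 and GRCm38. A peak caller or a Tn5 shift of reads is not given in the sources used here. Either can move peak edges and merge or split neighbours. Depth is unknown, so fold and −log10 values were ranked within a list only.

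On the autosomes, X and Y, peaks sharing 1 bp or more were merged, and a region was present in a library when a peak overlapped it by at least 1 bp. Covered length counts the bases of a library's peaks inside a region, whose edges come from the sgScramble peaks. Any sgArid1a peak reaching beyond those edges is counted only up to them. Gene positions were those of RefSeq on GRCm38.p6, without strand, so distances were taken to either gene end. The gene list symbols were matched to that table, except Mx1 and Mx2. Shares have exact (Clopper-Pearson) 95% binomial intervals. Per-library values were compared by an exact two-sided permutation test of group means. Named clusters were the 10 with the most regions, the 6 with the highest and 3 with the lowest absent share among those of at least 8 regions, and up to 2 per gene list. Other clusters and the 5 strongest absent regions were named after their values were seen. The members and the gene lists were chosen with earlier results of these data known. The genome's sequence was not used here, and motifs were searched in RefSeq start windows only. Alternatives covered the gap, the minimum of regions, the q and width of peaks, list length, overlap, exchanged groups, weighting, left-out libraries and a replicate block. Stitching and absence calls were tested on simulated data. Python 3.11.15, numpy 2.4.6, pandas 2.3.3, SciPy 1.17.1 and matplotlib 3.10.9 were used.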

Additional observations from a re-analysis of the deposited data

How the results depend on the processing

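The number of clusters depended on the rule's settings. Against 1387, a gap 0.5 times as long gave 196 and one 2 times as long 3201, at least 4 regions gave 2591 and at least 8 gave 289, a −log10 q of at least 5 gave 312, lists of equal length 631 and peaks of at least 500 bp 433. Leaving out 1 sgScramble library gave 1950 to 2189. The absent share of clustered regions (13.3%) was 12.5% with the shorter gap, 22.0% with a −log10 q of at least 5, 6.78% with lists of equal length, 14.1% with peaks of at least 500 bp, 23.4% when sgArid1a peaks had to cover 50% of a region, 3.51% with strict sgScramble and full sgArid1a lists, and 1.22% with the groups exchanged. Leaving out 1 library gave 18.2% to 24.0%. The difference from other distal regions (-2.27 points) stayed negative in every setting run. It was -5.84 with a −log10 q of at least 5, -3.46 with peaks of at least 500 bp, -0.22 with strict sgScramble and full sgArid1a lists, -0.48 with the groups exchanged, -7.87 weighted by fold percentile, -1.01 by width, -5.31 by fold percentile and width, and -1.14 by −log10 p percentile and width, a weighting chosen after seeing the data, as was that by −log10 p alone. Leaving out 1 library gave -3.61 to -2.50. Per library, equal-length lists turned the difference in clusters from -1010.5 to 31 and in the share of distal peaks from -8.22 to 0.59 points, and leaving out 1 library gave -1189.5 to -831.5 and -9.97 to -6.47. The cause was not tested, beyond the fewer peaks or regions that each stricter setting keeps.

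With the replicate number as a replicate block, the per-library differences were again -1010.5 clusters and -8.22 points, with p = 0.5 by exact sign flips, the smallest that 2 pairs allow. Nothing in the labels says that equal numbers share a culture or day.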

Other observations

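As a whole, clustered regions were of lower fold, with an upper quartile at the 64.1st percentile against the 75.9th for other distal regions. The absent clustered regions with the highest fold percentiles were few: 5 of 1186 lay above the 80th percentile, against 127 of 7338 absent other distal regions. They lay in clusters nearest to Rell1 (91.4th percentile, 330 and 507 bp covered in sgScramble and 0 in both sgArid1a lists), Map4k3, a kinase of the MAP kinase cascade, Taf3, a TFIID subunit, F2rl2, a protease-activated receptor, and Marcks, an actin-binding substrate of protein kinase C. In each of these clusters 3 or more of 5 or 6 regions had a peak in an sgArid1a list.

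On 15 of 20 chromosomes with at least 20 clustered regions, the absent share was lower for clustered than for other distal regions. On chromosome 16 it was 11.97% against 19.0%, and on chromosome 19 it was 16.7% against 14.8%. A group of 12 clusters with 83 regions, the Sfi1 cluster among them, began within 4 Mb of a chromosome's first base. Of those regions 5 were absent. Without all regions below 4 Mb, a setting chosen after seeing the data, the absent share was 13.4% and the difference -2.21 points.

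Hairpins touched 3 absent regions. Mir1190 lay wholly inside a region of the cluster nearest to Ccdc88c that was covered over 383 and 398 bp in sgScramble and 0 bp in both sgArid1a lists, in a cluster with 3 of 6 regions absent. Mir1968, in the cluster nearest to Lamp1, overlapped the end of such a region, and Mir1231, in that nearest to Nav1, shared only the end base of one. Mir9-2, in the cluster nearest to Mef2c, overlapped a region covered over 353 and 1210 bp in sgScramble and 1510 and 414 bp in sgArid1a, where replicates of a group differed as much as the groups.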
